A study of Drosophila melanogaster with 18 samples.

Results

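Heads of flies given 5 exposures to ethanol vapor were compared with heads of flies given a single exposure, across all genes on the array. The comparison uses 12 of the 18 samples of the series, chosen by their group labels: the 6 of the Chronic group (5 exposures, called 5-exposure heads here) and the 6 of the Fast group (a single exposure, single-exposure heads). All flies were Canton-S, a standard wild-type laboratory strain of Drosophila melanogaster, aged 2 to 5 days, and each sample was RNA of about 60 whole heads. All groups first received humidified air for 50 min. The 5-exposure and single-exposure groups then received 50% ethanol vapor, for which the labels give 40 min. For the 5-exposure flies they do not say whether this is the length of each exposure or of their sum, how far apart the exposures lay, or how long after the last one the flies were frozen. The 6 remaining samples, naive heads given only the 50 min of air, entered no test and are quoted as levels, to place the other 2 groups. Because each sample pools whole heads of flies whose sex is not stated, and no group with 5 exposures to air alone was analysed here, the number of exposures, the time elapsed and handling cannot be told apart.

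Ethanol is oxidised in flies to acetaldehyde by alcohol dehydrogenase and on to acetate, which is joined to coenzyme A and can enter fatty acid synthesis or the tricarboxylic acid cycle. Ethanol vapor first makes flies hyperactive and then sedates them, and flies that have been sedated before become tolerant, in part through the nervous system. A fly head holds brain, eyes, glia and cuticle, and also muscle and a layer of fat body, the tissue that stores fat and glycogen and carries the enzymes that detoxify foreign compounds.

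Every value below is an intensity, the linear hybridization signal of a probe set. Intensities of different probe sets cannot be set against each other. Array medians ran between 125 and 129, and each of the 12 arrays correlated with its own group at 0.988 to 0.992 on average. Along the first principal component, which held 35.6% of the variance, the 5-exposure arrays lay between 4.62 and 8.26 and the single-exposure arrays between -10.7 and -4.88, so the groups did not overlap. The 4 ratios of 3-prime to 5-prime control probe sets, which track RNA integrity, and the 4 hybridization spikes did not pass a test between the groups (adjusted p = 0.876 to 0.965, two-sided exact permutation tests over 8 controls). The codes that end the sample titles run on from the single-exposure to the 5-exposure group. The labels do not say what these codes number, so any order of processing behind them cannot be told apart from exposure. Of the marker genes of head cells, 24 of 25 for photoreceptors (such as trp and Arr2), 15 of 16 for neurons (nSyb and brp, but not elav), 18 of 20 for glia (repo, Gat) and 21 of 23 for fat body (Lsp2) passed the filter on low values, against 68.9% of all genes. Genes listed as markers of other tissues passed it too, 13 of 17 for ovary, 17 of 23 for gut and 8 of 18 for testis, as did 11 of 17 for haemocytes, the blood cells. The brightest ovary, testis and gut markers, Cp16, Mst98Ca and LManII, averaged 539, 542 and 754 in 5-exposure heads, against 553, 542 and 805 in single-exposure heads, while can and dj of testis, osk of ovary and NimC1 and eater of haemocytes lay below the filter. Passing the filter therefore does not show that a tissue was present.

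Of 9311 probe sets above that filter, 779 (8.37%) differed at an adjusted p below 0.05 (limma, Benjamini-Hochberg adjusted over all of them), 338 higher (3.63%) and 441 lower (4.74%) in 5-exposure heads. By gene, taking for each the probe set with the highest mean and a single symbol, 649 of 7470 genes were called (8.69%), of which 288 were higher (3.86%) and 361 were lower (4.83%). Most changes were small: the median called gene differed 1.2-fold, 16 genes rose and 55 fell by more than 1.5-fold, and 3 rose and 9 fell by more than 2-fold. The larger changes were thus mainly decreases. For 394 genes (5.27%) the 2 groups did not overlap on any array, 163 of them higher (2.18%) and 231 lower (3.09%) in 5-exposure heads. A call already asks for a difference large against the spread, so counts without overlap among called genes are no further evidence. For 98 genes the mean of 1 group lay under the low filter (an intensity of 86), so that they were tested only through the group where they were higher, and 11 of them were called higher and 13 lower. Those named below are GstE7, CG16898, CG5172, Hsp68, Sesn, Cyp309a2, Cyp4e3, Cyp6t1 and Clk. Their calls, and the list counts that include them, are to be read with that limit. The gene lists below are set against the shares of all genes, 3.86% called higher and 4.83% called lower. All 48 lists were chosen with earlier results of these data known, so a share above these is a description and no independent evidence. The median difference of all genes was -0.01 on the log2 scale.

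**Figure D1:**
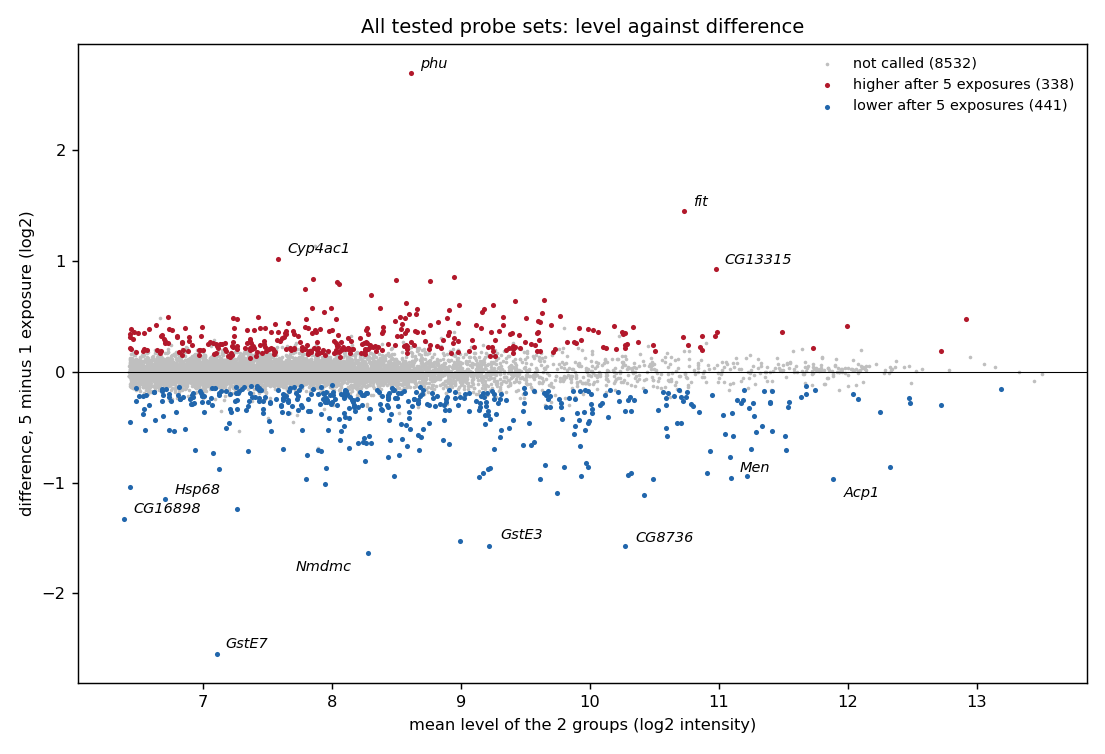
Each point is 1 of the 9311 tested probe sets, with its mean level (log2 intensity) on the x axis and the difference of 5-exposure minus single-exposure heads (log2) on the y axis. Red points were called higher (338) and blue points lower (441) in 5-exposure heads; phu and GstE7 stand at the upper and lower ends.

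The gene that rose most was phu, which encodes an alkaline phosphatase. Its intensity was 732, 936 and 1304 in 5-exposure heads, against 107, 139 and 267 in single-exposure heads (lowest, median and highest of 6 arrays, the order used for all such triples). The groups did not overlap, and the fold of 5-exposure over single-exposure heads was 6.48 (95% CI 4.87 to 8.62, limma adjusted p = 9.02e-08). Naive heads read 204 to 544 for phu, above most single-exposure arrays and below all 5-exposure arrays. The second was fit, a female-biased gene whose fat-body peptide signals satiety after a protein meal. It read 1771, 2928 and 3584 in 5-exposure heads, against 823, 925 and 1408 in single-exposure heads, without overlap, a fold of 2.73 (95% CI 2.16 to 3.45, adjusted p = 1.30e-05). Naive heads read 1909 to 2896 for fit, within the range of the 5-exposure heads. The third was Cyp4ac1, a cytochrome P450, with 239, 269 and 320.2 in 5-exposure heads and 112, 133 and 168 in single-exposure heads (fold 2.03, 95% CI 1.78 to 2.3, adjusted p = 7.93e-07).

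The other 12 of the 15 highest folds ran between 1.52 and 1.9. Of these, 9 carry only a CG number. CG13315 read 2175, 2819 and 3093 in 5-exposure heads, against 1150.4, 1428 and 1771 in single-exposure heads (fold 1.9). CG17124, CG8389, CG5618, CG8745, CG8665, CG13607, CG31778 and CG9928 had folds of 1.81, 1.79, 1.78, 1.76, 1.75, 1.73, 1.68 and 1.57 in that order. Among these 8, the groups overlapped for CG13607 and CG9928. Stat92E, the transcription factor of the fly JAK/STAT pathway, read 575, 616 and 676 in 5-exposure heads and 369, 402 and 479 in single-exposure heads, without overlap (fold 1.52, adjusted p = 6.47e-06).

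**Figure D2:**
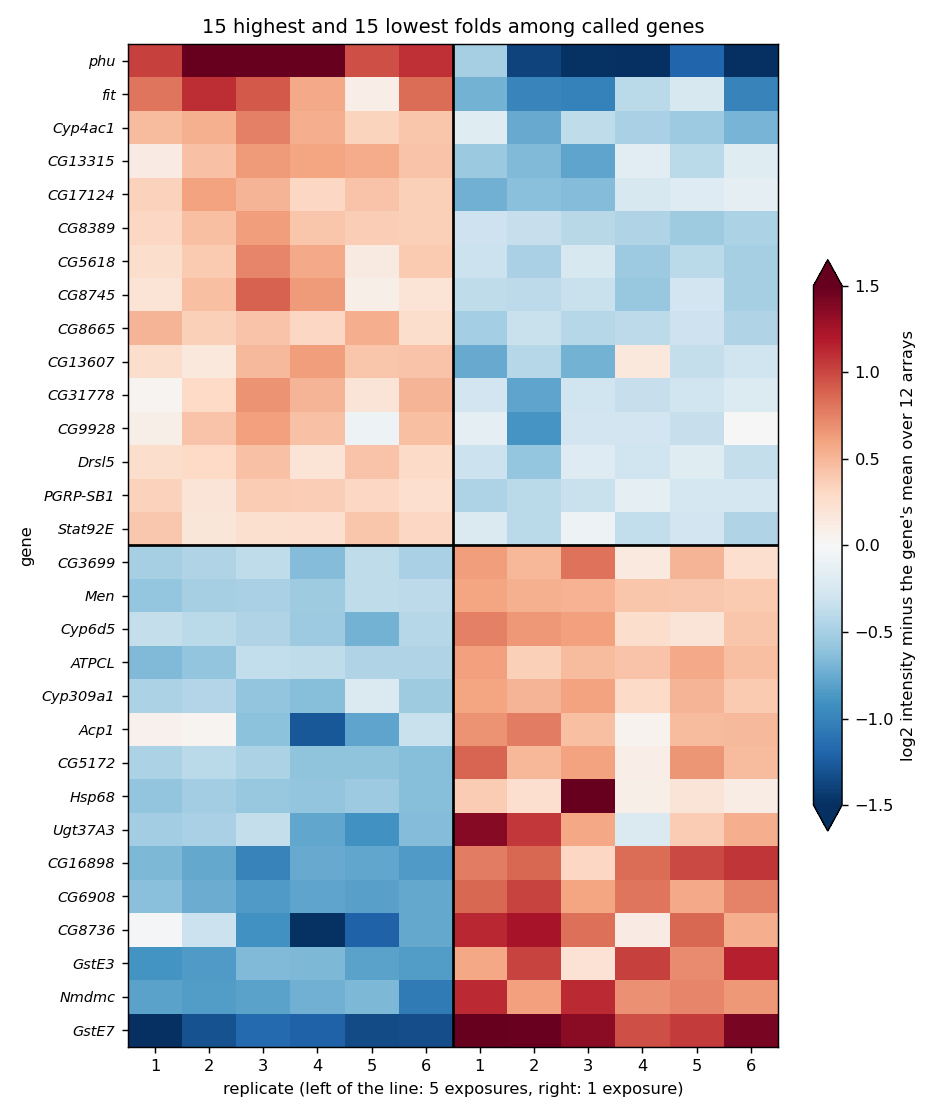
Rows are the genes with the 15 highest and the 15 lowest folds among called genes, and columns are the 12 arrays, with the 5-exposure replicates left of the vertical line and the single-exposure replicates right of it. Colour gives log2 intensity minus the gene's mean over the arrays; replicate 3 of the single exposure stands apart for Hsp68, at 501 against a group median of 109.

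Among the 15 lowest folds, 3 genes carry only a CG number outside the lists below. CG6908 read 283, 295 and 329.9 in 5-exposure heads, against 753, 866 and 1027 in single-exposure heads, and the naive range of 303 to 333 lay with the 5-exposure heads (fold 0.347, 95% CI 0.314 to 0.383, adjusted p = 4.17e-10). CG16898 read 41.6, 48.5 and 52.3 in 5-exposure heads, at or under the floor described below on all 6 arrays, and 103, 150.0 and 174 in single-exposure heads. Its fold therefore depends on that floor, 0.399 with it, 0.328 with a lower one and 0.499 with a pseudocount. CG3699 had a fold of 0.518 (adjusted p = 2.45e-06).

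Several detoxification genes stood at the lower end. Of 31 tested glutathione S-transferases, the enzymes that join glutathione to reactive compounds, 8 were lower (25.8%, against 4.83% of all genes). Only 1 was higher (3.23%, near the 3.86% of all genes), and the median log2 difference of the 31 was -0.10. GstE7 changed most of all genes that fell. It read 46.1, 54.7 and 60.6 in 5-exposure heads, against 267, 358 and 431 in single-exposure heads, a separation with no overlap. On 4 of the 6 arrays of the 5-exposure heads it lay at or under the floor of 58, so that its fold depends on how low values are treated: 0.171 with this floor (95% CI 0.15 to 0.196, adjusted p = 2.85e-11), 0.160 with a floor of 25.0 and 0.267 with a pseudocount of 50. Naive heads were as low, at 40.3 to 61.7. GstE3 read 316, 334 and 374 in 5-exposure heads and 687, 1075 and 1324 in single-exposure heads, with no overlap (fold 0.336, 95% CI 0.281 to 0.401, adjusted p = 2.00e-07). GstD1, which can break down the insecticide DDT, fell to 2228, 2279 and 2386 in 5-exposure heads, against 3498, 3707 and 4173 in single-exposure heads (fold 0.614, adjusted p = 4.35e-08). For both of these the naive range, 289 to 413 for GstE3 and 2363 to 2546 for GstD1, sat far below the single-exposure range. The others lower were GstE6 (fold 0.699), GstE1 (0.782), GstD2 (0.817), GstD3 (0.81) and GstD6 (0.878). The one higher was Mgstl, the membrane-bound microsomal transferase (fold 1.18, adjusted p = 0.00603), to which 1 other gene was added without 5-exposure replicate 5.

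Cytochrome P450 genes of clan 3, which hold the Cyp6 and Cyp9 families of inducible enzymes, were lower in 10 of 28 tested (35.7%) and higher in 1 (3.57%, near the 3.86% of all genes). Cyp6a2 read 843, 943 and 1005 in 5-exposure heads, against 1560.4, 1723 and 1999 in single-exposure heads, with no overlap (fold 0.53, 95% CI 0.485 to 0.58, adjusted p = 4.97e-08). Cyp6d5 fell to 871, 1050.5 and 1114 in 5-exposure heads, against 1633, 2044 and 2408 in single-exposure heads (fold 0.512, adjusted p = 1.85e-06). Naive heads read 859 to 1024 for Cyp6a2 and 846 to 1142 for Cyp6d5, near the range of the 5-exposure heads for each. Cyp309a1 and Cyp6w1 also fell without overlap (folds 0.512 and 0.687). Cyp309a2, 1 of the 10 (fold 0.694), was tested only through the single-exposure heads. Cyp9b2 fell on 1 probe set (fold 0.645, adjusted p = 5.53e-06), whereas its second one did not pass (fold 0.955, adjusted p = 0.594). The 1 higher clan 3 gene, Cyp6t1 (fold 1.13), was not called without 5-exposure replicate 3 or without 5-exposure replicate 6. Clan 4 was split, with 3 of 18 lower (16.7%) and 2 higher (11.1%). There Cyp4e2 read 694, 779.7 and 835 in 5-exposure heads and 1104, 1242 and 1304 in single-exposure heads (fold 0.628, adjusted p = 2.00e-07), opposite in direction to Cyp4ac1. Of 11 UDP-glycosyltransferases, which attach sugars to foreign compounds, 2 were lower (18.2%, against 4.83% of all genes) and none was higher. The 2 were Ugt37A3 (fold 0.424, 95% CI 0.321 to 0.56) and Ugt49B1 (fold 0.785).

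Jheh2, a juvenile hormone epoxide hydrolase of a family that also opens other epoxides, read 860.2, 899 and 983 in 5-exposure heads and 1433, 1774 and 1907 in single-exposure heads, with no overlap (fold 0.525, 95% CI 0.478 to 0.575, adjusted p = 5.41e-08). The other called gene among the 6 tested for juvenile hormone was Cyp12e1 (fold 1.16, adjusted p = 0.00453). Of 14 tested antioxidant genes, 4 were lower (28.6%) and none was higher, with folds of 0.794 to 0.888 among the 4. The lowest was thioredoxin reductase Trxr1 at 865, 920.5 and 996 in 5-exposure heads against 1054, 1196 and 1235 in single-exposure heads (fold 0.794, adjusted p = 0.000418). Without 5-exposure replicate 4 the count was 2. The catalase gene Cat was 1 of the 4 (fold 0.872, adjusted p = 0.0192), and its adjusted p was 0.0514 without that array. Also lower were ref(2)P (fold 0.816), not called without the same array, and Gtpx (fold 0.888, adjusted p = 0.0374). Although counted in this list, ref(2)P encodes an autophagy receptor. The call of Gtpx was lost without each of 8 arrays.

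**Figure D3:**
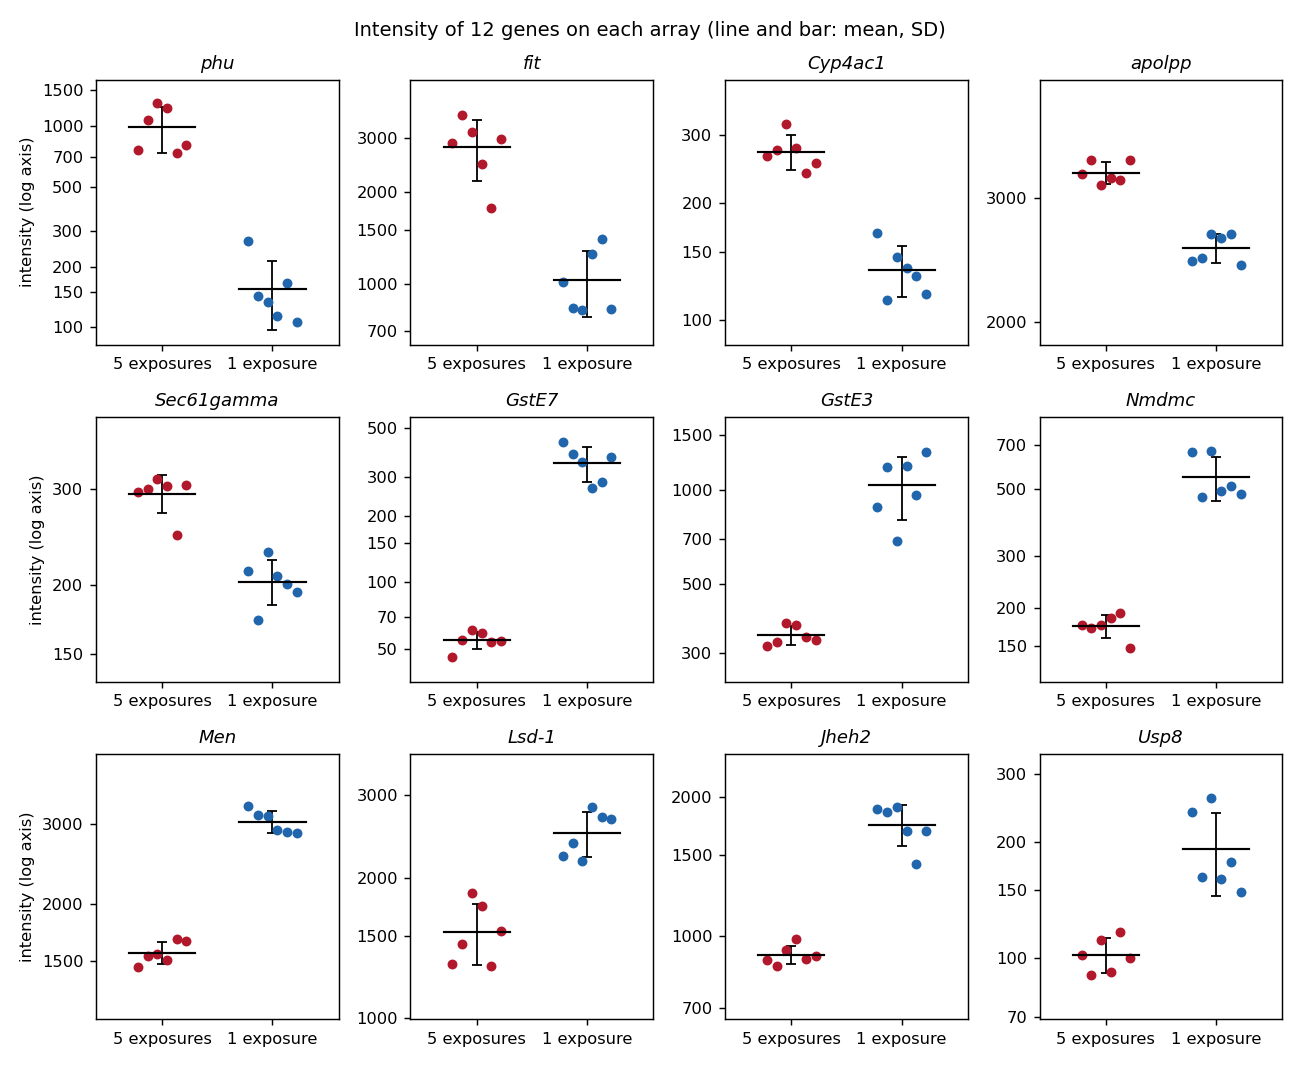
Each panel shows the intensity of 1 gene (log axis) on the 6 arrays of 5 exposures, left, and the 6 of a single exposure, right, with a line for the mean and a bar for the SD. In all 12 panels the groups do not overlap; phu, fit, Cyp4ac1, apolpp and Sec61gamma are higher in 5-exposure heads and the other genes lower.

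Among 11 tested genes of alcohol, aldehyde and acetate metabolism, 4 were lower (36.4%) and 2 higher (18.2%). Men, the cytosolic malic enzyme that supplies NADPH for fat synthesis and has been tied to ethanol tolerance in flies, read 1455, 1547 and 1679 in 5-exposure heads, against 2871, 3022 and 3297 in single-exposure heads. The groups lay far apart (fold 0.515, 95% CI 0.48 to 0.553, adjusted p = 2.60e-09), and its second probe set gave a fold of 0.593 (adjusted p = 8.84e-07). AcCoAS, which makes acetyl-coenzyme A from acetate, fell to 2092, 2448 and 2599 in 5-exposure heads, against 3152, 3562 and 3884 in single-exposure heads (fold 0.67, adjusted p = 1.08e-05). For each of these 2 genes the naive range was near that of the 5-exposure heads, 1356 to 1879 for Men and 1872 to 2624 for AcCoAS. Sodh1, a sorbitol dehydrogenase of the same enzyme superfamily as the mammalian alcohol dehydrogenases, read 499, 574 and 699 in 5-exposure heads and 686, 939.9 and 1161 in single-exposure heads, with overlap (fold 0.632, adjusted p = 0.00056). The 2 higher were Fdh, the class III alcohol dehydrogenase that clears formaldehyde (fold 1.25, adjusted p = 0.00802), and Sodh2 (fold 1.15). The count of genes higher was 1 when any array but 5-exposure replicate 4 or single-exposure replicate 5 was left out. Adh itself was not tested, since each of its probe sets is annotated to both Adh and Adhr.

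Of 22 genes of fatty acid synthesis and lipid storage, 6 were lower (27.3%) and 2 higher (9.09%), while 14 were not called. With each array left out in turn, 4 or 5 were lower. As a whole the list was evenly split, with 11 genes above 0, 11 below and a median log2 difference of -0.01. ATPCL, the citrate lyase that supplies cytosolic acetyl-coenzyme A, read 492, 571 and 606 in 5-exposure heads, against 1003, 1078 and 1191 in single-exposure heads, with no overlap (fold 0.512, 95% CI 0.471 to 0.557, adjusted p = 1.67e-08). ACC, the carboxylase of the committed step, fell on both its probe sets (folds 0.74 and 0.865). FASN1, the fatty acid synthase, had a fold of 0.822 (adjusted p = 0.0458). Agpat2, which builds phosphatidic acid, read 162, 191 and 208 in 5-exposure heads and 279, 309 and 328 in single-exposure heads (fold 0.609, adjusted p = 7.93e-07). Lsd-1, the perilipin that coats lipid droplets and admits lipases, read 1296, 1488 and 1853 in 5-exposure heads, against 2169, 2519 and 2832 in single-exposure heads (fold 0.61, 95% CI 0.534 to 0.697, adjusted p = 6.06e-05). Unlike for Men or ATPCL, the naive range of Lsd-1, 484 to 726, lay below both ethanol groups. The 2 genes higher were Lip4, a lipase gene (fold 1.28), and Jabba, which binds histones to lipid droplets in embryos (fold 1.26).

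In fatty acid oxidation 7 of 17 tested genes were higher (41.2%, against 3.86% of all genes), none was lower, 14 of the 17 lay above 0 and the median log2 difference was 0.15. The largest was scu, a mitochondrial hydroxyacyl-coenzyme A dehydrogenase, at 906, 1023 and 1161 in 5-exposure heads against 653, 733 and 796 in single-exposure heads, with no overlap (fold 1.42, 95% CI 1.29 to 1.56, adjusted p = 7.10e-05). The acylcarnitine carrier colt read 618, 676 and 752 in 5-exposure heads and 472, 544 and 566 in single-exposure heads (fold 1.28, adjusted p = 0.000438). The carnitine palmitoyltransferase whd, which admits long-chain fatty acids to mitochondria, had a fold of 1.22 (adjusted p = 0.0193), with overlap. The electron-transfer flavoprotein subunit wal, the enoyl-coenzyme A hydratase Echs1 and the carnitine acetyltransferase CRAT had folds of 1.21, 1.15 and 1.12. Hmgs, a hydroxymethylglutaryl-coenzyme A synthase, was higher on 1 probe set (fold 1.39, adjusted p = 0.000729) and not on its second one (fold 1.03, adjusted p = 0.790). For 6 of the 7 the groups did not overlap, while 2.18% of all genes were higher without overlap.

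Of 9 glycolytic genes, 6 were lower (66.7%, against 4.83% of all genes) and none was higher. The amounts were modest, with folds of 0.813 to 0.883. Pgi, glucose-6-phosphate isomerase, read 1308, 1395 and 1445 in 5-exposure heads, against 1492, 1697 and 1934 in single-exposure heads (fold 0.813, adjusted p = 0.00145). The aldolase gene Ald1 and the glucokinase-like Hex-C had folds of 0.867 and 0.83. Pgk and Pglym78 (folds 0.883 and 0.84) were not called after quantile normalization (adjusted p = 0.0977 and 0.0678), which left 3 of the 6. Of 11 genes of gluconeogenesis, glycogen and trehalose, 5 were lower (45.5%) and 1 higher (9.09%). AGBE, the glycogen branching enzyme, read 457, 517 and 563 in 5-exposure heads and 672, 807 and 889 in single-exposure heads, with no overlap (fold 0.664, 95% CI 0.601 to 0.735, adjusted p = 2.39e-05). Glyp, the glycogen phosphorylase that breaks glycogen down, and Glys, the synthase that extends it, both fell (folds 0.727 and 0.837), as did UGP (fold 0.815). Pepck1, the gatekeeper of gluconeogenesis, read 1493, 1835 and 2852 in 5-exposure heads, against 2906, 3055 and 3213 in single-exposure heads. The groups came close without overlapping (fold 0.615, adjusted p = 0.000647), and naive heads spread widely at 708 to 2255. The 1 higher was the trehalose transporter Tret1-1 (fold 1.14, adjusted p = 0.0198), whose second probe set agreed (fold 1.28) and whose adjusted p was 0.0549 without 5-exposure replicate 4. Of 11 maltase and sugar-response genes, 2 were higher (18.2%) and 2 lower (18.2%). Only tobi, a target of both insulin and glucagon-like signals, stayed called without each array in turn (fold 1.41, adjusted p = 0.00709). The other 3, sug, Mal-B2 and Mal-A3 (adjusted p = 0.0262, 0.0262 and 0.0471), were not called without 7, 5 and 10 of the 12 arrays.

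Serine and folate one-carbon metabolism, which feeds purine synthesis, was lower in 7 of 17 genes (41.2%) and higher in 4 (23.5%). For all 7 lower genes the groups did not overlap, while 3.09% of all genes were lower without overlap. Nmdmc, the mitochondrial folate dehydrogenase and cyclohydrolase, read 148, 176 and 193 in 5-exposure heads, against 472, 503 and 671 in single-exposure heads (fold 0.321, 95% CI 0.281 to 0.368, adjusted p = 7.61e-09). Astray, aay, the phosphatase of the last step of serine synthesis, read 649, 713 and 754 in 5-exposure heads and 1269, 1330.0 and 1451 in single-exposure heads (fold 0.52, adjusted p = 3.26e-09). Here the 5-exposure heads lay below the naive heads too, which read 1051 to 1224. Serine hydroxymethyltransferase Shmt, the cytosolic folate enzyme pug and the glycine methyltransferase Gnmt had folds of 0.559, 0.742 and 0.544. The 4 higher were CG8665, predicted to oxidise formyltetrahydrofolate (fold 1.75), CG10621, Mthfs and Cth. This count of 4 was less firm: it was 1 or 2 without each of 9 of the 12 arrays, and 4 or 3 only without 5-exposure replicate 5 or single-exposure replicate 1 or 3.

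All 6 called genes of purine synthesis and breakdown were lower, 46.2% of 13 tested (against 4.83% of all genes). For each of the 6 the groups did not overlap, while 3.09% of all genes were lower without overlap. Gart, a trifunctional enzyme of the pathway, read 226, 249 and 309 in 5-exposure heads, against 459.9, 467 and 621 in single-exposure heads (fold 0.52, 95% CI 0.46 to 0.588, adjusted p = 1.13e-06). Naive heads, at 424 to 624, lay with the single-exposure heads. The synthesis enzymes Pfas, Prat2 and Paics had folds of 0.63, 0.762 and 0.772, and the adenosine deaminases Adgf-D and Ada had folds of 0.779 and 0.91. Of 17 genes of amino acid breakdown, 5 were lower (29.4%) and 2 higher (11.8%). Those lower include Oat, ornithine aminotransferase (fold 0.727), Got2, an aspartate aminotransferase (fold 0.834), and Gdh, glutamate dehydrogenase (fold 0.857, not called after quantile normalization, adjusted p = 0.105). CG5618 was higher, at 395, 473 and 598 in 5-exposure heads and 247, 263 and 305 in single-exposure heads (fold 1.78, adjusted p = 5.34e-06). The other gene higher was Tat, and 1 of the 2 was called when any array but 5-exposure replicate 5 or single-exposure replicate 3 or 4 was left out.

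Of 23 heat shock and cytosolic chaperone genes 3 were lower (13%, against 4.83% of all genes) and none was higher, while 1 was higher without single-exposure replicate 3. Hsp68 read 60.3, 62.6 and 65.3 in 5-exposure heads, against 99.2, 109 and 501 in single-exposure heads, and it was tested only through the single-exposure heads (no overlap, fold 0.45, adjusted p = 0.0193). Hsp26 read 138, 149 and 153 in 5-exposure heads and 188, 206 and 566 in single-exposure heads (fold 0.617, adjusted p = 0.0388). In each of these genes replicate 3 of the single exposure stood far above its group. Without it the fold was 0.582 for Hsp68 (adjusted p = 1.12e-07) and 0.733 for Hsp26 (adjusted p = 9.36e-06). With it, Hsp26 was not called without any 1 of the 5-exposure arrays or without single-exposure replicate 2 (adjusted p = 0.0505 to 0.0787), and a pseudocount or a trended prior ended both calls. Hsc70-4, a constitutive chaperone, had a fold of 0.828 (adjusted p = 0.00784), lost after quantile normalization (adjusted p = 0.107).

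Of 32 tested genes that move new proteins into the endoplasmic reticulum and along the secretory path, 9 rose (28.1%, against 3.86% of all genes) and 23 were not called. None was lower and 30 lay above 0, with a median log2 difference of 0.10. All 3 subunits of the Sec61 channel were among them. Sec61gamma read 248, 302 and 313 in 5-exposure heads, against 173, 205 and 230.5 in single-exposure heads, with no overlap (fold 1.45, 95% CI 1.31 to 1.6, adjusted p = 5.05e-05). Sec61alpha read 988, 1208 and 1307 in 5-exposure heads and 848, 898 and 1032 in single-exposure heads, with overlap (fold 1.3, adjusted p = 0.000845), and Sec61beta had a fold of 1.26. The signal recognition particle genes Srp68 and Srp14, its receptor SrpRalpha, the channel partner TRAM and the signal peptidase subunits twr and Spase22-23 had folds between 1.12 and 1.27. For Sec61gamma and Sec61alpha the naive ranges, 255 to 294 and 1046 to 1377, lay near those of the 5-exposure heads. Of 23 endoplasmic reticulum chaperone and stress genes 2 were higher (8.7%; Pdi, fold 1.18, and Atf6, fold 1.17) and 1 was lower (4.35%, near the 4.83% of all genes; Der-1, fold 0.868), with 2 lower without 5-exposure replicate 5.

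**Figure D4:**
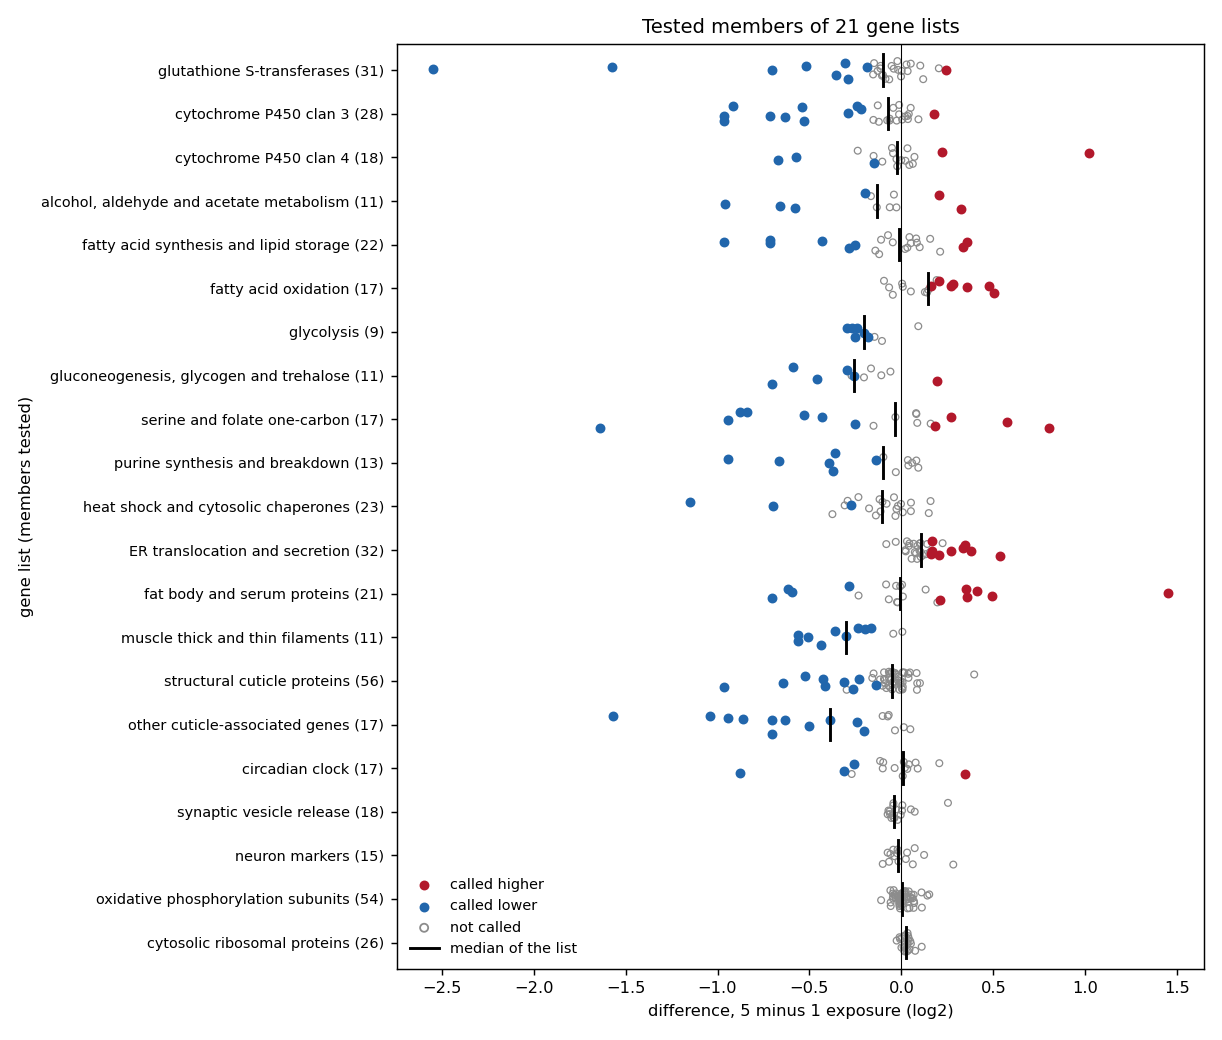
Each point is a tested gene of the named list, placed by its difference of 5-exposure minus single-exposure heads (log2). Filled red points were called higher and filled blue points lower, open points were not called, and the black bar is the list's median; fatty acid oxidation (7 higher) and endoplasmic reticulum translocation (9 higher) lie to the right, muscle filaments (9 lower) and glycolysis (6 lower) to the left.

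Of 11 thick and thin filament genes of muscle, 9 were lower (81.8%, against 4.83% of all genes) and none was higher, with a median log2 difference of -0.30, and with each array left out in turn the count was 7 to 9. Prm, the paramyosin of the thick filament core, read 624, 794 and 884 in 5-exposure heads, against 971, 1152 and 1272 in single-exposure heads, with no overlap (fold 0.677, 95% CI 0.604 to 0.758, adjusted p = 0.00012). Troponin T, up, fell on 1 probe set (fold 0.703, adjusted p = 0.000176) and not on the other (fold 0.938, adjusted p = 0.407). TpnC41C, Tm2 and Mlc1 had folds of 0.739, 0.811 and 0.677. Of 17 Z-disc and accessory genes 4 were lower (23.5%) and 13 were not called. The 4 were Actn, Zasp66, SERCA and Msp300 (folds 0.723, 0.832, 0.795 and 0.864), the last on 1 of 3 probe sets. The summed intensity of all 13 filament genes on the array, 2 of them below the filter, was 12360.4 to 16778 in 5-exposure heads. It was 16747 to 20169 in single-exposure heads and 15647 to 23004.5 in naive heads. Because these are bulk samples, fewer cells of a type and less RNA per cell cannot be told apart, here and for every list below. Leaving out the least correlated array of each group, a choice made after seeing the data, left 6 of the 9.

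Of 56 structural cuticle genes, 9 were lower (16.1%, against 4.83% of all genes), none was higher (1 without 5-exposure replicate 2) and 47 were not called, with 15 above 0 and a median log2 difference of -0.05. The summed intensity of all 70 list genes on the array, 14 of them below the filter, did not overlap between groups. It was 15786 to 18922 in 5-exposure heads, against 19480.0 to 22829 in single-exposure heads. Bright genes weigh most in such a sum, and Acp1 alone averaged 2768 in 5-exposure heads and 5203 in single-exposure heads. Cpr97Eb read 221, 250.3 and 292 in 5-exposure heads and 332, 386 and 459 in single-exposure heads (fold 0.639, 95% CI 0.565 to 0.723, adjusted p = 7.22e-05). Cpr100A, Cpr11B and Cpr62Bc had folds of 0.696, 0.744 and 0.75, also with no overlap, and naive heads read 1081 to 1759.9 for Cpr100A. Acp1 varied more, at 1527, 2662 and 3854 in 5-exposure heads and 3830.1, 5120.1 and 6254 in single-exposure heads, with overlap by a narrow margin (fold 0.512, adjusted p = 0.00248). A further list of 17 cuticle-associated genes was drawn up with earlier results of these data in view, several of its members being known to fall, so its 11 lower genes are no independent evidence of a direction. In it CG8736 read 421, 660.2 and 1167 in 5-exposure heads, against 1287, 2118 and 2777 in single-exposure heads, without overlap (fold 0.337, 95% CI 0.244 to 0.465, adjusted p = 0.000145). CG5172 read 55.2, 59 and 64.8 in 5-exposure heads, at or under the floor on 3 arrays, and 92, 125 and 156 in single-exposure heads (fold 0.487). CG5172 was tested only through the single-exposure heads. Vajk2, CG7203 and obst-A had folds of 0.765, 0.55 and 0.645, and all 3 probe sets of Vajk2 were lower. Replicate 4 was the lowest of its group in 5-exposure, single-exposure and naive heads alike for Acp1, CG8736, CG7203 and Mlc1. Part of the spread of these genes within groups thus went with the replicate number (closing section). What the arrays of a number share is not stated in the labels and was not tested.

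**Figure D5:**
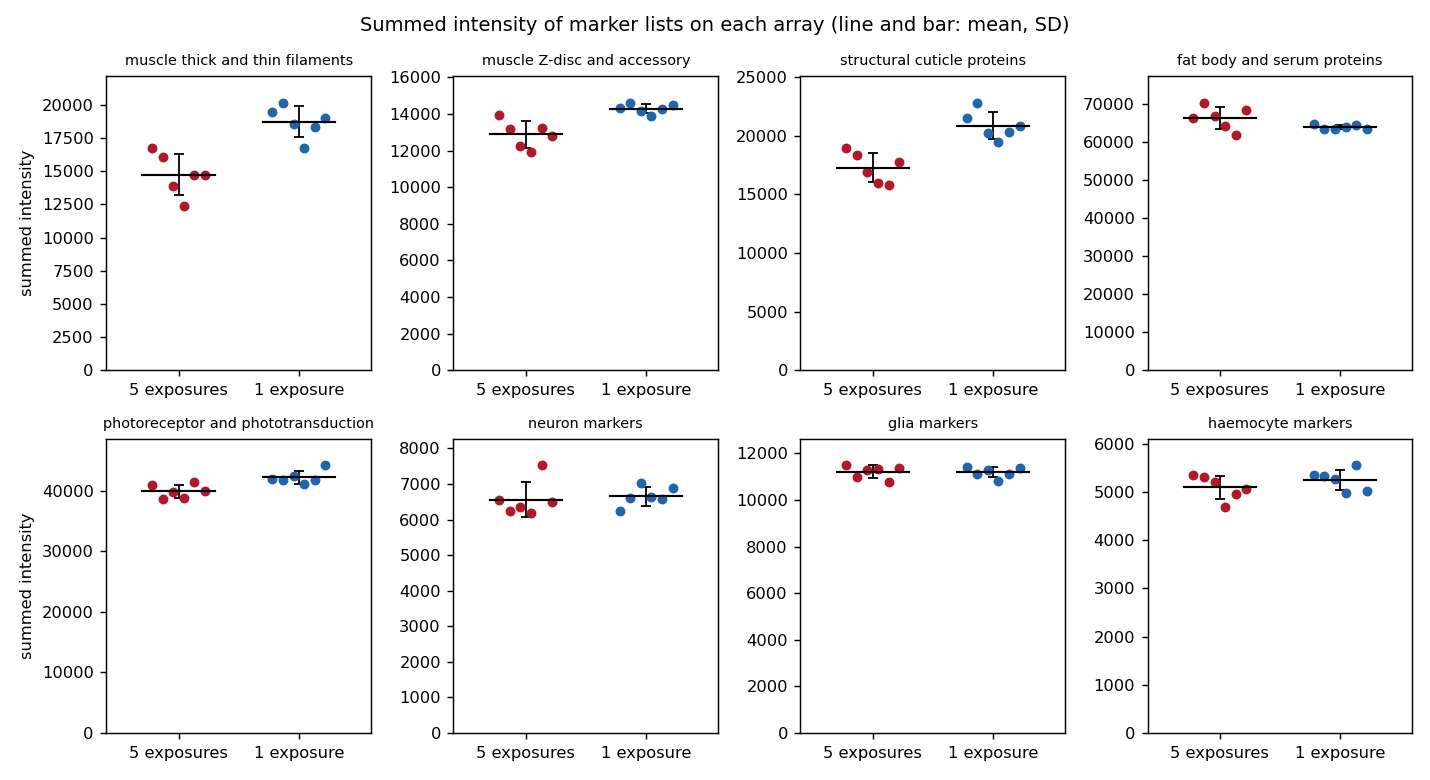
Summed intensity of 8 marker lists on each array, 5 exposures left and a single exposure right, with a line for the mean, a bar for the SD and axes starting at 0. The sums include list members below the filter on low values, and bright genes weigh most in them. The cuticle sums do not overlap, the filament sums meet at 16778 in 5-exposure heads and 16747 in single-exposure heads, and the neuron, glia and haemocyte sums overlap widely.

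Genes of fat body and serum proteins moved both ways, 6 of 21 higher (28.6%) and 4 lower (19%). Of these, tobi (higher) and Pepck1 and FASN1 (lower) were already counted in lists above, so the counts are not separate. Apolpp, the precursor of the main lipid-carrying particle of fly blood, read 3132, 3227 and 3406 in 5-exposure heads, against 2411, 2549 and 2668 in single-exposure heads, with no overlap (fold 1.28, 95% CI 1.2 to 1.36, adjusted p = 2.61e-05), and its second probe set gave 1.44. Its lipid transfer partner Apoltp had a fold of 1.16 (adjusted p = 0.011). Tsf1, the iron-binding transferrin, read 4347, 4736 and 5049.8 in 5-exposure heads and 3242, 3469.6 and 4074 in single-exposure heads (fold 1.33, adjusted p = 6.98e-05). Among those lower was smp-30, a regucalcin relative, at 222, 246 and 279 in 5-exposure heads against 336, 376 and 403 in single-exposure heads (fold 0.662, adjusted p = 2.60e-06). The 2 odorant-binding proteins known from fat body split, Obp99a higher (fold 1.28) and Obp99b lower (fold 0.651), and Obp99a was not called without 5-exposure replicate 6 (adjusted p = 0.0504) or without single-exposure replicate 6. No other of 19 odorant-binding protein genes was called, while without 5-exposure replicate 2 or single-exposure replicate 3 or 5 the list held 2 higher genes, and without single-exposure replicate 6 it held 2 lower ones. Quantile normalization called 4 of them higher. The yolk protein genes Yp1, Yp2 and Yp3, which females express in fat body, had folds of 0.984, 0.944 and 0.995 (adjusted p = 0.815, 0.326 and 0.964), none called. Their probe sets ranked 1 to 5 in intensity among all 14010 on each of the 12 arrays, so near the top of the range that these folds cannot show that the genes did not differ. Of the male-biased genes tested, Obp99b was lower, while msl-2 and fru, with folds of 0.938 and 1.07, were not called.

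Of 24 immune genes 3 were higher (12.5%, against 3.86% of all genes) and 2 lower (8.33%, against 4.83%). Drsl5, a relative of the antifungal peptide drosomycin, read 783, 834 and 927 in 5-exposure heads, against 457, 549.9 and 602 in single-exposure heads, with no overlap (fold 1.56, 95% CI 1.42 to 1.71, adjusted p = 4.47e-06). PGRP-SB1, an enzyme that cuts bacterial peptidoglycan, read 436, 478 and 497 in 5-exposure heads and 277, 309.5 and 344 in single-exposure heads (fold 1.54, adjusted p = 7.93e-07), while naive heads had 501 to 686. The third was GNBP3, a receptor for fungal glucan (fold 1.27). Pirk, which damps the Imd pathway, was lower (fold 0.772, adjusted p = 0.00824). The second lower gene, LysE, kept its call without only 4 of the 12 arrays, 5-exposure replicate 2 and single-exposure replicates 1, 3 and 4.

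None of 15 neuron markers and none of 18 synaptic vesicle release genes was called in either direction by limma, and 1 of each list had an unadjusted p below 0.05. At the 8.69% of all genes called, lists of this size would hold few calls in any case. Without single-exposure replicate 3, 1 neuron marker was called higher, and 1 synaptic gene was called higher without 5-exposure replicate 2, without single-exposure replicate 6 or with the replicate number as a block. Of 26 potassium and other ion channel genes only 1 was called, Irk2, which was lower (3.85%, near the 4.83% of all genes). Its fold was 0.868 (adjusted p = 0.0412), and it kept the call only without 5-exposure replicate 1 or single-exposure replicate 2 or 4. The calcium-activated potassium channel slo, whose induction has been tied to rapid tolerance in flies, read 326, 357 and 433 in 5-exposure heads and 275, 333 and 382 in single-exposure heads, a fold of 1.13 with a 95% CI of 1.0 to 1.27 (adjusted p = 0.268). The stress and tolerance gene hang had a fold of 1.05 (95% CI 0.942 to 1.17, adjusted p = 0.718). Of 25 genes with roles in ethanol behaviour or cAMP signalling, 2 were higher (8%), the receptor gene Egfr on both its probe sets (folds 1.28 and 1.16) and the kinase anchor Akap200 (fold 1.14), and Men was lower. Of 13 activity-regulated genes, 2 were higher (15.4%) and 1 was lower (7.69%). The gene sr, an immediate early transcription factor, was higher (fold 1.24, adjusted p = 0.0311). It was not called without any 1 of 5-exposure replicates 2, 3 and 6 or single-exposure replicates 3, 4 and 6 (adjusted p = 0.0537 to 0.0799). CG13868 was also higher (fold 1.32, adjusted p = 0.000284) and Cyp6a8 lower (fold 0.609). Cyp6a8 is also a cytochrome P450 of the Cyp6 family described above. Without each of 5-exposure replicates 2, 3 and 6 and single-exposure replicates 4 and 6, 1 gene of this list was higher, and without 5-exposure replicate 5 or single-exposure replicate 2, 2 were lower. Hr38 fell under the filter on low values and was not tested.

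Among neuropeptide genes, 2 of 25 were higher (8%) and 1 lower (4%, near the share of all genes). CCHa2, a nutrient-dependent peptide made in fat body and gut, read 470.0, 501 and 527 in 5-exposure heads, against 308, 366 and 481 in single-exposure heads, with overlap (fold 1.34, 95% CI 1.18 to 1.52, adjusted p = 0.00387). Nplp3 was lower (fold 0.812), and the second higher gene, Orcokinin, had an adjusted p of 0.0401 and was not called without 5-exposure replicate 1, 3, 4 or 5 or single-exposure replicate 1, 2, 5 or 6, while 4 genes were higher without 5-exposure replicate 2. Of 21 genes of insulin, TOR and starvation signalling 4 were higher (19%) and 3 lower (14.3%). Sesn, sestrin, a stress-induced brake on TOR, read 75.9, 80.4 and 90.3 in 5-exposure heads and 97.9, 106 and 112 in single-exposure heads, with no overlap (fold 0.765, adjusted p = 6.73e-05). Like Hsp68, Sesn was tested only through the single-exposure heads. ImpL2, a secreted antagonist of insulin-like peptides, was lower (fold 0.834, adjusted p = 0.00468). The third lower gene, Atg8a, was not called without 5-exposure replicate 3 or 4 or single-exposure replicate 5 or 6 (adjusted p = 0.0506 to 0.0585). It was also not called after quantile normalization (adjusted p = 0.290). The 4 higher, Lip4, REPTOR-BP, Atg1 and sug, dropped to 1 or 2 without 5-exposure replicate 1, 3, 4 or 6 or single-exposure replicate 1 or 4.

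Of 17 circadian clock genes, 1 was higher (5.88%) and 3 were lower (17.6%). Clk, an activator of the clock, read 92.6, 100.4 and 114 in 5-exposure heads, against 71.1, 81.6 and 86.8 in single-exposure heads, with no overlap (fold 1.27, 95% CI 1.16 to 1.39, adjusted p = 0.00102). It passed the low filter only through the 5-exposure heads and was left out under a stricter filter on low values. Usp8, a deubiquitinase that acts on CLK in flies, read 90.2, 101 and 117 in 5-exposure heads and 148, 169.6 and 259.8 in single-exposure heads, also with no overlap (fold 0.544, 95% CI 0.455 to 0.65, adjusted p = 0.000129). For Usp8 the naive heads, at 92.7 to 129, were as low as the 5-exposure heads. The repressor vri was lower (fold 0.804, adjusted p = 0.00104), and Slob was lower on 1 of its 2 probe sets (fold 0.837). The core repressor genes per and tim were not called, with folds of 0.923 (95% CI 0.854 to 0.997, adjusted p = 0.244) and 0.829 (95% CI 0.721 to 0.953, adjusted p = 0.102). Tim was called lower without single-exposure replicate 6 (adjusted p = 0.0394), and without 5-exposure replicate 2 the list held 2 higher genes. The time of day at which each group was frozen is not stated in the labels, and its part in these values was not tested.

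In the eye, 4 of 24 photoreceptor and phototransduction genes were lower (16.7%) and 1 higher (4.17%). The light-gated channel gene trpl read 1936, 2173 and 2458 in 5-exposure heads, against 2693, 2842 and 2927 in single-exposure heads, with no overlap (fold 0.76, 95% CI 0.705 to 0.82, adjusted p = 7.15e-05). The photoreceptor calcium-binding protein gene Cpn had a fold of 0.735 (adjusted p = 0.000117). Laza, a lipid phosphatase of the phototransduction cycle, was higher (fold 1.16). The lens protein gene retinin (fold 0.847, adjusted p = 0.0219) was not called without 5-exposure replicate 4 or single-exposure replicate 6. After quantile normalization neither retinin (adjusted p = 0.0602) nor chp (fold 0.875, there adjusted p = 0.179) was called. The list then held 2 lower and 2 higher genes. Of 18 glia markers 1 was lower (5.56%, near the 4.83% of all genes), the citrate transporter Indy (fold 0.807, adjusted p = 0.0011). The 2 higher (11.1%) were Tret1-1 and CG6126 (folds 1.14 and 1.1). The higher count was 0 or 1 without each of 5-exposure replicates 1 to 4 and single-exposure replicates 1, 4, 5 and 6, and 2 were lower without 5-exposure replicate 5.

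Several large groups of housekeeping genes gave no call by limma. None of 54 oxidative phosphorylation subunits, 62 mitochondrial ribosomal proteins, 26 cytosolic ribosomal proteins, 26 proteasome subunits or 12 genes of the tricarboxylic acid cycle was called, with 3, 3, 0, 2 and 1 at an unadjusted p below 0.05. Not every list was evenly split: 23 of the 26 cytosolic ribosomal genes lay above 0 and 22 of the 26 proteasome genes below 0. The median log2 differences of these lists were small, 0.03 and -0.05. Quantile normalization called 3 of the oxidative phosphorylation, 2 of the cytosolic ribosomal and 2 of the tricarboxylic acid cycle genes higher. With 1 array left out, 1 oxidative phosphorylation gene was called higher without 5-exposure replicate 4 or single-exposure replicate 1 or 5, 1 tricarboxylic acid cycle gene higher without single-exposure replicate 3, and 1 proteasome gene lower without single-exposure replicate 6. RpL32, a common reference transcript, read 3922, 4159 and 4345 in 5-exposure heads and 3808, 4091 and 4243 in single-exposure heads (fold 1.02, 95% CI 0.966 to 1.09). No gene was called among 15 of dopamine and pigment synthesis, 12 of histone acetylation and deacetylation, 11 haemocyte, 17 gut, 8 testis or 13 ovary markers, with 2, 2, 2, 0, 1 and 3 at an unadjusted p below 0.05, and 1 haemocyte marker was lower without single-exposure replicate 4. Act5C has no probe set named for it alone and was not tested.

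Some called genes are neighbours on their chromosomes. Of the 648 called genes that could be placed in the gene table, 110 (17%) stood next to another gene called in the same direction when the tested genes were put in chromosome order, in 53 runs. Genes that were not tested may lie between them. Since 8.69% of all genes were called, some called genes would be adjacent in any order. The share to expect was not worked out, so the 17% is a description only. In all, 4 runs held 3 genes: GstD1, GstD2 and GstD3, all lower (folds 0.614 to 0.817); uif, Gart and MME1, all lower (0.520 to 0.898); CG13116, CG13117 and Cyp4e3, all lower (0.804 to 0.903); and gw, Slip1 and myo, all higher (1.13 to 1.25). The call of Cyp4e3 was lost without each of 9 arrays, all but 5-exposure replicates 3 and 6 and single-exposure replicate 6. The GstD genes have similar sequences, and whether their probe sets hybridize to each other's transcripts was not tested. Of the 47 called genes with more than 1 tested probe set, 34 had all of them in the same direction, and in 11 all were called.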

How the data were processed

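Hybridization intensities of Affymetrix probe sets from 18 head samples were read from the deposited value table. The authors made 1 linear intensity per probe set and array from 6 µg of labelled total RNA. The software, any scaling and any detection calls are not stated in these sources. Of 14010 probe sets, 44 controls were left out; 12443 had 1 gene symbol, 327 several and 1196 none in the annotation used. Over the 12 arrays compared, intensities under 58 (the 20th percentile) were set to it, log2 was taken, and probe sets with a mean log2 under 6.43 were left out. The groups were compared with limma 3.58.1 (R 4.3.3, lmFit and eBayes, 10 residual degrees of freedom, two-sided, Benjamini-Hochberg threshold 0.05), and controls with exact permutation tests in scipy 1.17.1. On simulated data with independent noise on each array, 200 of 9311 probe sets were changed. This recovered 70% of 1.2-fold and 100% of 1.5-fold changes, with 9 false calls among the unchanged probe sets. The real arrays shared part of their spread (closing section), so these rates need not hold for them. The labels call the samples of a group biological replicates; the number of arrays limits the precision. No sample column was left unused. Replicate numbers were not taken as pairs, by the rule given in the closing section.

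The text names the called genes with the 15 highest and the 15 lowest folds, up to 5 called members with the smallest p of each list with at least 2 (up to 2 of the others), and a fixed panel. Other called members are named only to complete a count and were chosen after their values were seen. The comparison, the panel and the 48 gene lists were chosen with earlier results of these data known. Gene order was taken from the RefSeq table of assembly Release 6 plus ISO1 MT. The 11 alternatives and the 12 fits leaving out 1 array are given in the closing section.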

Additional observations from a re-analysis of the deposited data

Results flagged for a closer look

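Of 296 groups of 6 arrays checked (the 148 genes chosen by the naming rule, in both groups), 13 had an array far from the other 5 by Dixon's criterion (gap over range above 0.625). With independent, normally distributed values about 1 group in 20 would be flagged, and 13 of 296 is no more than that share. The genes were measured on the same arrays, and 5 of the 13 flags fell on a single array. The share therefore cannot show that the flags arose by chance.

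In 5 genes this array was replicate 3 of the single exposure, the highest of its group: Hsp68 at 501, Hsp26 at 566, Hsc70-4 at 3563, ref(2)P at 621 and Gart at 621. The first 3 encode chaperones and ref(2)P an autophagy receptor. Without that array limma gave folds of 0.582, 0.733, 0.860, 0.863 and 0.545 for these genes in the same order, all still called lower. The cause was not tested.

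In 4 genes it was replicate 5 of the 5-exposure heads, the lowest of its group: Cyp4d20 at 545, Sec61gamma at 248, Cpr62Bc at 261 and ImpL2 at 310.0. Without it their folds were 1.18, 1.5, 0.788 and 0.855, all called. For phu, replicate 1 of the single exposure was the highest of its group at 267, and the fold without it was 7.29. Cyp4p1 read 384 in replicate 3 of the 5-exposure heads, and its fold without that array was 0.653. In replicate 2 of the single exposure CG31778 was low at 126 (fold without it 1.58) and LysE high at 624. Without that array LysE was not called (fold 0.890, adjusted p = 0.0598).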

How the results depend on the processing

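The 779 probe sets called (338 higher, 441 lower in 5-exposure heads) became 631 (271, 360) with no filter on low values, 737 (322, 415) with a stricter filter on low values, 744 (356, 388) with median centring, 792 (347, 445) with all 18 arrays in the fit, 796 (349, 447) with a trended robust prior, 799 (352, 447) with a pseudocount of 50, 779 with a floor at the 5th percentile, 848 (370, 478) with array weights and 816 (435, 381) after quantile normalization, which turned the share of higher calls to 53.3%, against 43.4%. Leaving out 1 array at a time gave 611 to 805 calls, 254 to 386 higher and 349 to 440 lower. Leaving out the least correlated array of each group, chosen after seeing the data, gave 679 (276, 403). With the replicate number as a block (replicate block), 1102 were called, 523 higher and 579 lower. Arrays of the same number correlated at -0.05 to 0.52 in their deviations from the group means, above 0.1 for 4 of 6 numbers, and 7 of 12 arrays were closest to the array of their own number, so part of the spread went with the number. The labels tie no number to a shared batch, and not every number passed 0.1, so the numbers were not taken as pairs.

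Of the 148 genes chosen by the naming rule above, 143 were called and none turned direction in any fit. Leaving out 1 array ended the call of 17 of them, and the other alternatives ended the call of 30. Genes named only to complete a count, such as Cyp6t1, were not among the 148. Among the lists, heat shock genes ranged most, with 1 lower with no filter, with a pseudocount or with a trended prior and 7 with the replicate block, against 3. The differences of control ratios and spikes passed no threshold when any array was left out. No detection calls were used, so for dim genes the floor limits how far a fold can be read.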
